A study of Mus musculus with 15 samples.

Results

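The NRF2 antioxidant genes are 9 genes: *Nfe2l2*, which encodes the transcription factor NRF2, *Keap1*, which encodes its inhibitor, and 7 genes that NRF2 is known to switch on, *Hmox1*, *Gclm*, *Gclc*, *Srxn1*, *Txnrd1*, *Gsr* and *G6pdx*. They were taken by name, and the list was chosen with earlier results of these data known. All 9 were found among the 48709 genes counted by RNA sequencing. The 15 libraries were of mouse embryonic stem cells (ESCs) losing OCT4, the product of *Pou5f1*. CreER ESCs (Oct4Fl/-; CAG CreER, mixed 129SV and C57BL/6 background) hold 1 floxed *Pou5f1* allele opposite a null allele, and a Cre recombinase driven by the ubiquitous CAG promoter deletes that allele once 4-OHT (500 nM) is added. Libraries were made 0, 12, 18, 24 and 36 h after 4-OHT, 2 replicates per time. O4AID ESCs (ZHBT; Oct4-/-; TetOFF Oct4; CAG Oct4AID; CAG Tir1, strain 129SV) have no endogenous OCT4, and all of their libraries, the untreated one included, were kept in doxycycline (1 µg/ml), which silences the Tet-OFF transgene. They depend on an OCT4 fused to an auxin-inducible degron, which the plant auxin IAA (500 µM) sends to the proteasome through TIR1, and their libraries, 1 per time, date from 0, 1.5, 6, 10 and 24 h after IAA. Both lines were grown without serum with LIF and inhibitors of MEK and GSK3. In its qRT-PCR and western blot courses of OCT4 loss, the paper moved the floxed ESCs to serum with LIF on adding 4-OHT. It does not say whether this was done for the RNA sequencing course. From qRT-PCR of eGFP-AID ESCs given IAA, the paper reports that IAA itself caused neither the loss of pluripotency genes nor the trophectoderm rise. Its listed qRT-PCR assays include none of the 9 genes. RNA from a line given IAA without a degron on OCT4 was not analysed here, so IAA, OCT4 loss and the line cannot be told apart in the O4AID course. Nor can 4-OHT, Cre activity, OCT4 loss and any change of medium in the CreER course.

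NRF2 is made continuously and is normally held in the cytoplasm by KEAP1, an adaptor of a CUL3 ubiquitin ligase that marks it for destruction. Oxidants and electrophiles modify cysteines of KEAP1, newly made NRF2 then escapes, enters the nucleus, pairs with a small MAF protein and binds antioxidant response elements, short DNA sites near its targets. Control is therefore largely at the protein level, and the mRNAs of the targets are the usual readout of NRF2 activity. Among them *Gclc* and *Gclm* encode the subunits of the enzyme that limits glutathione synthesis, *Gsr* regenerates reduced glutathione, *Txnrd1* and *Srxn1* keep the thioredoxin and peroxiredoxin systems reduced, *G6pdx* supplies NADPH through the pentose phosphate pathway, and *Hmox1* breaks down haem.

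Each CreER library held 21.7 to 30.8 M counted reads (M, mega), whereas the O4AID libraries were deeper, with 40.5 to 48.7 M. The 8 ESC markers examined were detected in every library. *Pou5f1* mRNA fell in CreER by 0.51, 0.96, 1.26 and 1.43 on the log2 scale at 12, 18, 24 and 36 h. In O4AID, where the protein is the target, its mRNA stood at 0.18, -0.08, -0.12 and -0.27 against 0 h at 1.5, 6, 10 and 24 h. Summed levels of 6 fibroblast markers were 9.31 to 11.7 CPM (reads per mega-read of library size after TMM scaling) in CreER and 40.5 to 57.8 CPM in O4AID, where *Pdgfrb* alone held 37.9 to 54.3 CPM and *Col3a1* and *Postn* were at 0 reads in 4 of 5 libraries each.

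Promoter sequence was at hand for 6 of the 9 genes, *Nfe2l2*, *Keap1*, *Gclm*, *Srxn1*, *Txnrd1* and *G6pdx*, from RefSeq on GRCm38.p6, as windows from 250 bases before to 50 bases after each annotated start. *Hmox1*, *Gclc* and *Gsr* had no window. The antioxidant response element was searched on both strands by its core letters TGACNNNGC, which occur in 12.4% of all 32851 windows. Of 27 further NRF2 targets, taken up below, 25 had a window and 9 held these letters. Among the 6 genes they occurred in 5, all but *Keap1*, and in 5 of the 8 windows those genes have. The matches are given in capitals within 30 bases of the gene's own strand, since these are the letters NRF2 is known to bind, although a match of letters does not show binding.
*Nfe2l2*, chr2:75704884-75704913, minus strand: tcagcccaccTGACTCCGCcatgccccgga
*Gclm*, chr3:122245413-122245442, plus strand: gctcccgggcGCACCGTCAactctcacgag
*Srxn1*, chr2:152105542-152105571, plus strand: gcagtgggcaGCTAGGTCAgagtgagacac
*Txnrd1*, chr10:82859104-82859133, plus strand, in the second of its 3 windows: ctggatttttGCTTTGTCAttctgacacgg
*G6pdx*, chrX:74428918-74428947, minus strand: aggcgggtcaGCTCAGTCAaagcacacgcc

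A narrower spelling, TGANTCAGC, which overlaps the first only where N is C, was added after the *Srxn1* window had been read. It occurs in 1.19% of all windows and, among the 6 genes, in *Srxn1* alone. Its presence in *Srxn1* was known when it was chosen, so that share cannot measure how unusual the match is. Among 27 further NRF2 targets, 25 had a window and 4 held it, *Gstp1*, *Me1*, *Osgin1* and *Prdx1*. A link between the match and the change of *Srxn1* was not tested. *Srxn1* was the member that changed most in both lines, so the 250 bases before its start are shown, with the match at -45 in capitals (position 0 is the start).
*Srxn1*, chr2:152105274-152105523, plus strand: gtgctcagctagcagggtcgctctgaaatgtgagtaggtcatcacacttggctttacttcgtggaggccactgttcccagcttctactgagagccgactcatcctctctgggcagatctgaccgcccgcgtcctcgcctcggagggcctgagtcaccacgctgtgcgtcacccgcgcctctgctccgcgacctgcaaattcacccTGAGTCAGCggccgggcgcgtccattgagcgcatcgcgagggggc

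Before treatment the genes spanned a wide range of expression, and 4 of them differed between the lines by more than 2-fold. Per kilobase of transcript, *Txnrd1* was the most abundant at 137 ± 3.89 CPM per kb in CreER (SD, n = 2) and 123 in O4AID. *Gsr* followed at 77.6 ± 7.05 and 72.8, and *Keap1* was the lowest in CreER at 3.38 ± 0.24. In CreER *Hmox1* stood at 72.9 ± 1.38 CPM per kb, within the spread of *Gsr*, and the order then ran through *Gclc* (32.9 ± 1.59) and *G6pdx* (31.6 ± 2.39), which did not differ beyond their spread, to *Nfe2l2* (21.7 ± 0.19), *Srxn1* (11.2 ± 0.12) and *Gclm* (9.48 ± 0.66). In O4AID *Nfe2l2* stood next after *Gsr* at 47.4 CPM per kb, ahead of *Gclc* (35.01), *Srxn1* (30.9), *G6pdx* (29.2) and *Hmox1* (25.4), with *Keap1* (10.4) and *Gclm* (10.2) last. The untreated O4AID library held 2.18 times as much *Nfe2l2*, 3.08 times as much *Keap1* and 2.76 times as much *Srxn1* as the mean of the untreated CreER libraries. *Hmox1* went the other way and was 2.87 times higher in CreER, and the remaining 5 genes differed by ratios of 0.899 to 1.07 (O4AID over CreER). These are 2 libraries against 1, so no test was made.

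**Figure D1:**
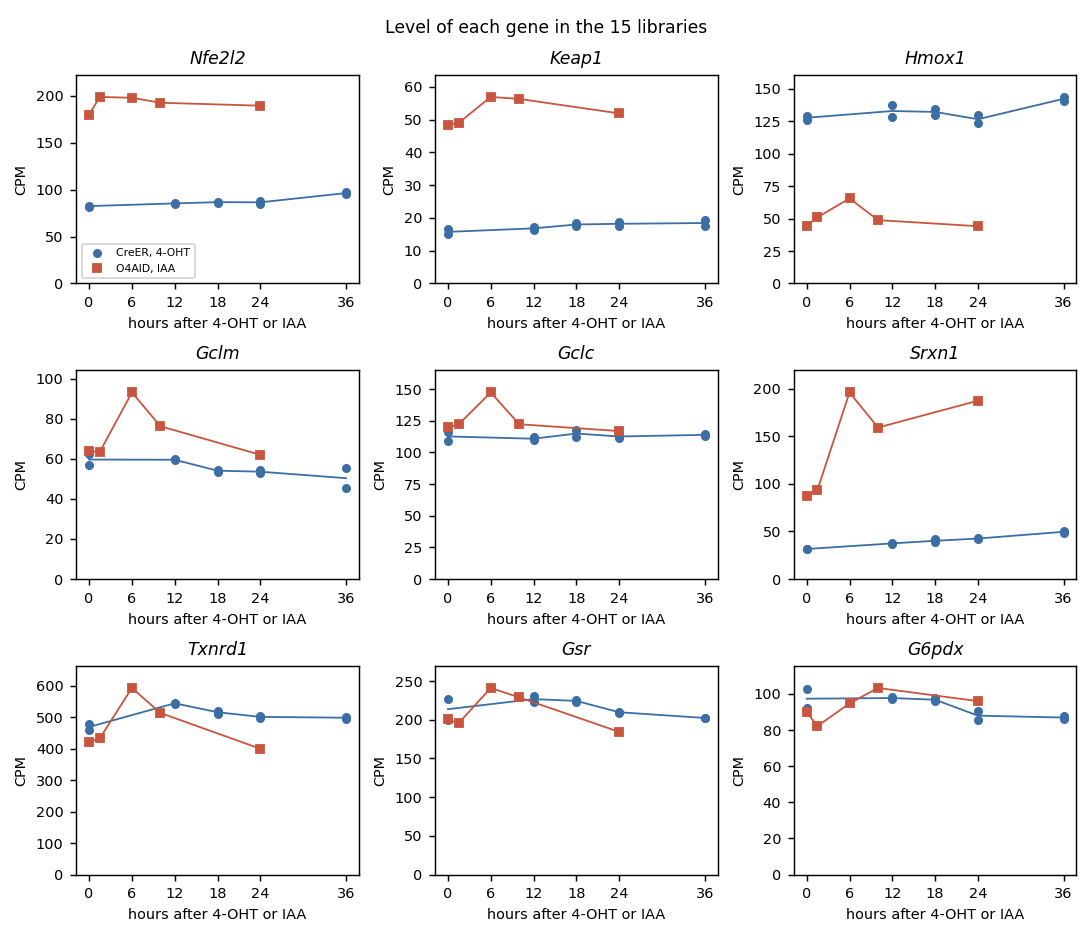
CPM (vertical axis, from 0) of each of the 9 genes against hours after 4-OHT (CreER, circles, 2 replicates per time, line through their mean) or IAA (O4AID, squares, 1 library per time). In O4AID 7 of the 9 genes were highest at 6 h. Of these, *Srxn1* (-0.06 on the log2 scale) and *Keap1* (-0.13) changed least from 6 h to 24 h. *Nfe2l2* and *G6pdx*, highest at other times, changed by -0.06 and 0.02 over that interval.

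*Srxn1* (ENSMUSG00000032802, chr2:152105516-152111376, plus strand), which encodes sulfiredoxin, the enzyme that repairs over-oxidised peroxiredoxins, rose in both courses and was the only one of the 9 genes past 1.5-fold in O4AID. In O4AID its level was 87.1, 93.4, 196, 159 and 187 CPM in order of time. The last 3 libraries lay well above the first 2. RNA was pooled over the cells of a culture, so more cells expressing a gene and more RNA per cell cannot be told apart here or in any value that follows. The change against 0 h, as the log2 ratio of CPM + 1 with a 95% interval for counting error alone, was 0.10 (0.04 to 0.16), then 1.16 (1.10 to 1.22), 0.86 (0.80 to 0.92) and 1.10 (1.04 to 1.15) for the treated libraries in the same order. At 6 h only 0.259% of the 13885 genes expressed in O4AID had a change as high, and at 24 h 3.69% did. In CreER its replicates were at 31.3 and 31.8 CPM untreated, then at 38.0 and 36.8, at 38.6 and 41.7, at 41.7 and 43.2, and at 48.7 and 50.5 CPM over the 4 treated times. Both replicates of every treated time lay above both untreated ones. The log2 fold change was 0.25 ± 0.06 (SE) at 12 h (edgeR adjusted p = 0.0632), 0.35 ± 0.06 at 18 h (edgeR adjusted p = 0.000204), 0.44 ± 0.06 at 24 h (edgeR adjusted p = 2.95e-06) and 0.66 ± 0.06 at 36 h (edgeR adjusted p = 6.31e-10). The last 3 calls were kept under all 11 alternatives tried for each, and at 12 h the change was called without the filter on low counts (edgeR adjusted p = 0.0229).

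In O4AID most of the genes peaked in the single 6 h library, and most had come back by 24 h. *Nfe2l2* was highest at 1.5 h (199 CPM, against 198 at 6 h) and *G6pdx* at 10 h. Above their 0 h level were 6, 9, 9 and 4 of the 9 genes in order of time, where 45.8%, 47.6%, 44.5% and 45.3% of all expressed genes lay above. Scaling by total reads put all 9 above at 24 h, as it raised the median of all genes at that time from -0.05 to 0.07. The median log2 change of the 9 genes was 0.03, 0.30, 0.20 and -0.01 at these times, against -0.01, -0.01, -0.04 and -0.05 over all expressed genes. Past 1.5-fold in either direction there were 0, 1, 1 and 1 of the 9, the 1 being *Srxn1* each time, while 0.799%, 5.30%, 9.61% and 22.7% of all genes were past it. With scaling by total reads 3 of the 9 were past it at 6 h. At a limit of 1.2-fold, chosen after the values had been seen, 6 of the 9 were higher at 6 h, where 11.9% of all genes were. Since no O4AID time was repeated, the gap between CreER replicates served as a measure of library-to-library scatter. At 6 h 8 of the 9 genes rose by more than their own largest gap between CreER replicates at any time, as 19.9% of all genes did, and the exception was *G6pdx*. That gap comes from another line and from shallower libraries, and no p-value can be given. The 9 genes were chosen with earlier results of these data known, so their shares beside those of all genes are a description only.

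**Figure D2:**
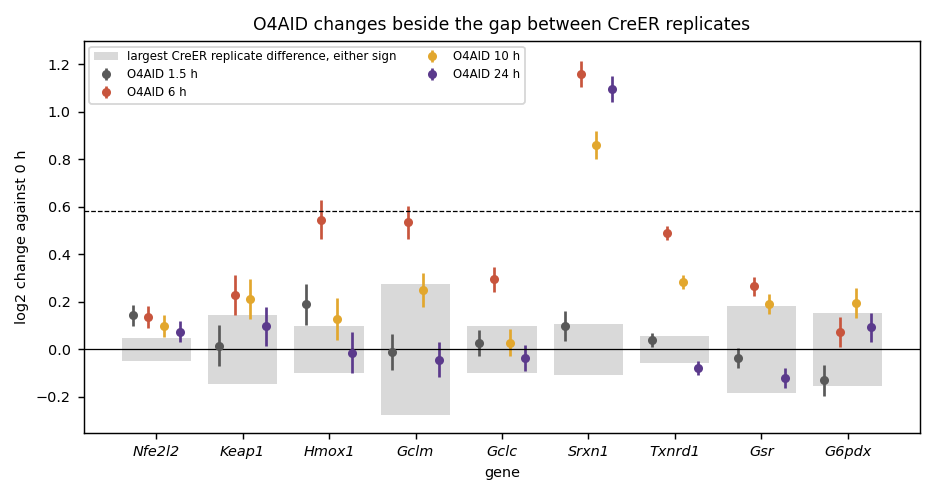
Log2 change of CPM + 1 in O4AID against 0 h for each gene at 1.5, 6, 10 and 24 h, with bars for the 95% counting interval, over a grey box that reaches the largest difference between CreER replicates of that gene in either direction. The dashed line marks 1.5-fold. At 6 h 8 genes lie above their box, and *Srxn1* alone lies above the dashed line.

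The glutathione synthesis genes made a brief peak in O4AID. *Gclm* (ENSMUSG00000028124, chr3:122245557-122270732, plus strand), the modifier subunit, was at 63.9, 63.4, 93.1, 76.2 and 62.0 CPM in order of time. *Gclc* (ENSMUSG00000032350, chr9:77754535-77794485, plus strand), the catalytic subunit, was at 119.8, 122, 147, 122 and 117 CPM. For both, the 6 h library was the highest of the 5. The 6 h change was 0.54 (0.47 to 0.61) for *Gclm* and 0.30 (0.24 to 0.35) for *Gclc*. From 6 h to 24 h *Gclm* dropped by 0.58 (-0.65 to -0.51) and *Gclc* dropped by 0.33 (-0.39 to -0.28), which left them at -0.04 and -0.04 against 0 h. In CreER the subunits did not move together. *Gclm* went from 56.7 and 62.5 CPM untreated to 55.2 and 45.4 after 36 h, and its log2 fold change was -0.23 ± 0.07 (edgeR adjusted p = 0.00724). The 36 h replicates lay 0.28 apart on the log2 scale, the widest gap of any of the 9 genes, and without the second of them the change was -0.11 and the call was lost (edgeR adjusted p = 0.206). It was lost also without the second untreated replicate (-0.16, edgeR adjusted p = 0.116). *Gclc* ran from 109 to 117 CPM over all 10 CreER libraries and was at 0.03 ± 0.05 at 36 h (edgeR adjusted p = 0.665). Of the exon bases of *Gclm*, 4.71% are shared with *Gm17494* on the opposite strand and 3.88% with *Gm6061* on the same strand, where strand cannot assign a read to one of them.

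*Txnrd1* and *Gsr*, the reductases of the thioredoxin and glutathione systems, peaked at 6 h as well. *Txnrd1* (ENSMUSG00000020250, chr10:82859206-82897724, plus strand) was at 422, 433, 593, 513 and 399.7 CPM in the O4AID libraries in order of time, a change of 0.49 (0.46 to 0.52) at 6 h and -0.08 (-0.11 to -0.05) at 24 h. *Gsr* (ENSMUSG00000031584, chr8:33652523-33698163, plus strand) was at 200.4, 196, 241, 229 and 184 CPM, with 0.27 (0.22 to 0.31) at 6 h and -0.12 (-0.16 to -0.08) at 24 h. Both thus ended slightly below their untreated level, a direction that turned for both when libraries were scaled by total reads. In CreER *Txnrd1* went from 478 and 459.6 CPM untreated to 542 and 546 after 12 h, and the later replicates lay between 495 and 521. All treated libraries lay above both untreated ones. Its log2 fold change was 0.22 ± 0.04 at 12 h (edgeR adjusted p = 0.00552), 0.14 ± 0.04 at 18 h (edgeR adjusted p = 0.0164), 0.10 ± 0.04 at 24 h (edgeR adjusted p = 0.0547) and 0.10 ± 0.04 at 36 h (edgeR adjusted p = 0.0420). The 12 h call was lost without the second untreated replicate (edgeR adjusted p = 0.0637) or without either 12 h replicate (edgeR adjusted p = 0.169 and 0.127). The 18 h call was lost without the same untreated replicate (edgeR adjusted p = 0.155) or either 18 h replicate (edgeR adjusted p = 0.100 and 0.152), and the 36 h call without that replicate (edgeR adjusted p = 0.257) or the second 36 h one (edgeR adjusted p = 0.183). The 36 h call was absent also with RLE scaling, without the low-count filter and with only the 4 libraries compared (edgeR adjusted p = 0.0729, 0.139 and 0.179) and in DESeq2 (adjusted p = 0.127). Scaling by total reads removed all 3 calls (edgeR adjusted p = 0.0620, 0.0657 and 0.835) and left a log2 fold change of 0.01 at 36 h. *Gsr* had untreated CreER replicates at 227 and 199.9 CPM, which spanned those of 18 and 24 h and both at 36 h (202 and 203), and no call was made for it at any time. Without the first untreated replicate it was called at 12 h (edgeR adjusted p = 0.0379) and 18 h (edgeR adjusted p = 0.0121), and without the second it was called lower at 36 h (edgeR adjusted p = 0.00791), as it was with scaling by total reads (-0.15, edgeR adjusted p = 0.0197).

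*Hmox1*, haem oxygenase 1, and *G6pdx*, the first enzyme of the pentose phosphate pathway, took different courses. *Hmox1* (ENSMUSG00000005413, chr8:75093621-75100589, plus strand) was at 44.6, 51.0, 65.5, 48.8 and 44.1 CPM in O4AID. After 1.5 h it already stood 0.19 (0.10 to 0.28) above the untreated library, it reached 0.55 (0.46 to 0.63) by 6 h and was back to -0.01 (-0.10 to 0.07) by 24 h. In CreER its level lay between 124 and 138 CPM up to 24 h and reached 144 and 141 CPM at 36 h, above both untreated replicates (129 and 126), with a log2 fold change of 0.17 ± 0.04 (edgeR adjusted p = 0.00358), a call lost with scaling by total reads (edgeR adjusted p = 0.198). *G6pdx* (ENSMUSG00000031400, chrX:74409483-74429194, minus strand) was at 90.0, 82.2, 94.7, 103 and 96.0 CPM in O4AID and was highest at 10 h, at 0.20 (0.13 to 0.26). In CreER it fell from 103 and 92.2 CPM untreated to 87.7 and 86.1 after 36 h (log2 fold change -0.15 ± 0.05, edgeR adjusted p = 0.0211). Its call was lost without the first untreated replicate (-0.07, edgeR adjusted p = 0.334) and without either 36 h replicate (edgeR adjusted p = 0.0530 and 0.0647) or with only the 4 libraries compared (edgeR adjusted p = 0.0779). Over 13.6% of its exon bases *G6pdx* overlaps *Ikbkg* on the opposite strand, and how the counting used strand was not given, while its retrogene *G6pd2* held at most 13 reads in any library.

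Against 0 h the reported change of *Nfe2l2* and of *Keap1* was under 1.2-fold at every time in both lines. *Keap1* passed 1.2-fold under some alternatives, with at most 0.31 in O4AID (10 h) and 0.32 in CreER (36 h, 1 library left out). *Nfe2l2* (ENSMUSG00000015839, chr2:75675513-75704641, minus strand) was at 180.1, 199, 198, 193 and 189.7 CPM in O4AID, a change of 0.14 (0.10 to 0.19) at 1.5 h and 0.14 (0.09 to 0.18) at 6 h, times that counting error alone did not tell apart. *Keap1* (ENSMUSG00000003308, chr9:21229730-21239332, minus strand) was at 48.4, 49.0, 56.9, 56.3 and 51.9 CPM and reached 0.23 (0.14 to 0.31) at 6 h. In CreER *Nfe2l2* ran from 82.0 to 88.1 CPM up to 24 h and stood at 97.1 and 95.8 CPM at 36 h. Its log2 fold change there was 0.24 ± 0.05 (edgeR adjusted p = 0.000135), a call that was kept when any 1 library was left out. *Keap1* went from 14.96 and 16.5 CPM untreated to 17.5 and 19.4 after 36 h, a log2 fold change of 0.23 ± 0.08 (edgeR adjusted p = 0.0309). That call was lost without the first untreated replicate (edgeR adjusted p = 0.195) or the second 36 h one (edgeR adjusted p = 0.293) and in DESeq2 (adjusted p = 0.148). It was lost also with scaling by total reads (0.15, edgeR adjusted p = 0.172) and with only the 4 libraries compared (edgeR adjusted p = 0.0733), and 10.9% of the exon bases of *Keap1* are shared with *Gm16754* on the opposite strand.

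Over the whole CreER course more of the 9 genes were called at 36 h than before, as for all genes, and in both directions. In order of time 1 (*Txnrd1*), 2 (*Srxn1* and *Txnrd1*), 1 (*Srxn1*) and 7 of the 9 were called, where 0.395%, 8.52%, 21.6% and 36.6% of the 18969 genes tested were called. At 36 h 5 were higher (*Nfe2l2*, *Keap1*, *Hmox1*, *Srxn1* and *Txnrd1*) and 2 lower (*Gclm* and *G6pdx*), against 19.4% and 17.2% of all genes. Scaling by total reads turned this balance to 2 higher and 3 lower, and that of all called genes from 53.1% to 36.0% higher. Without the second 36 h replicate 3 of the 9 were called, *Nfe2l2*, *Hmox1* and *Srxn1*. At 24 h 3 of the 9 were called when either untreated replicate was left out. At 18 h 3 were called without the first untreated replicate, and 1 without the second or without either 18 h replicate. Their median log2 fold change was 0.06, 0.08, 0.01 and 0.10 at the 4 times, and that of all genes lay between -0.0003 and 0.01. Both replicates lay on the same side of both untreated replicates for 3, 6, 6 and 7 of the 9 genes, while 38.1%, 50.6%, 58.9% and 64.5% of all genes did so. The labels number the replicates without saying whether they came from separate cultures, so these p-values measure the spread between these libraries.

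**Figure D3:**
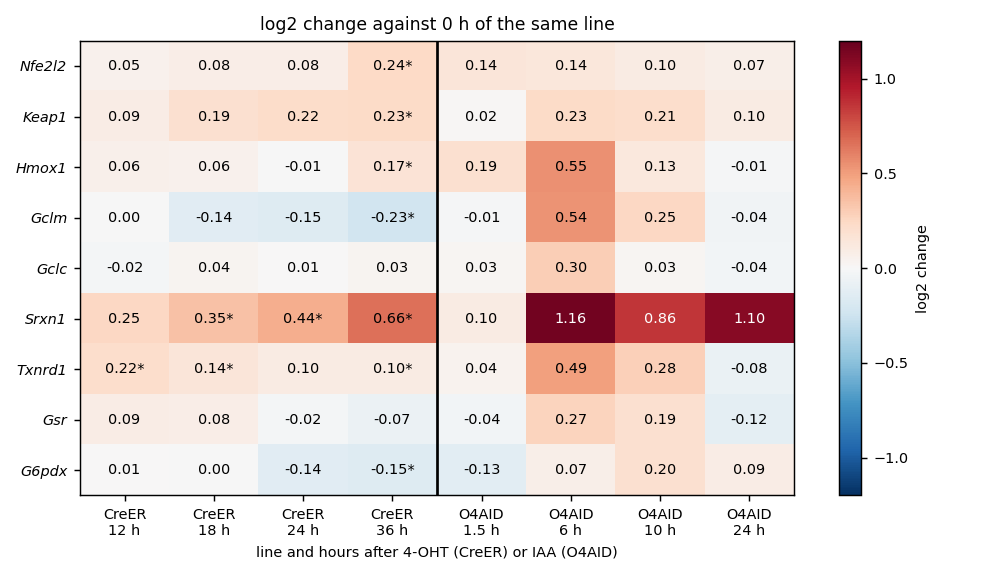
Log2 change against 0 h of the same line for each gene (rows) and time (columns), CreER by the edgeR fit on the left and O4AID as the log2 ratio of CPM + 1 on the right, in red for higher and blue for lower. Asterisks mark CreER changes with an adjusted p under 0.05. O4AID has no test. The O4AID column at 6 h holds 9 values above 0, while the CreER column at 36 h holds 6 above and 3 below.

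At 24 h, the one treated time present in both courses, only *Srxn1* was far from its untreated level in either. On the scale of log2 CPM + 1 it stood at 1.10 in O4AID and at 0.39 and 0.44 in the CreER replicates, a difference of 0.68. *G6pdx* stood at 0.09 in O4AID and at -0.11 and -0.18 in CreER. *Txnrd1* stood at -0.08 in O4AID and at 0.08 and 0.11 in CreER. *G6pdx* and *Txnrd1* thus lay on opposite sides of their untreated levels in the lines. Neither was called in CreER at 24 h (edgeR adjusted p = 0.0505 and 0.0547). The O4AID value of *G6pdx* was within its largest gap between CreER replicates (0.15), and that of *Txnrd1* was beyond its own (0.06). For the other 6 genes the difference between the lines was between -0.10 and 0.11. The difference was not tested, because O4AID has 1 library at each time. Equal hours also do not mean equal time without OCT4. The paper reports that the tagged protein became undetectable within hours of IAA. In its floxed ESCs, full depletion of OCT4 RNA and protein took a day or more.

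Other parts of the pathway were read from lists of 10 regulators, 27 further NRF2 targets, 8 genes of NADPH supply and 20 other antioxidant genes. Of the 10 regulators, 4 were called higher in CreER at 36 h and 0 lower, where 19.4% and 17.2% of all genes were. *Bach1*, a repressor that competes with NRF2 at antioxidant response elements, went from 39.9 and 42.7 CPM untreated to 76.0 and 69.9 after 36 h, a log2 fold change of 0.83 ± 0.06 (edgeR adjusted p = 2.52e-12). *Sqstm1*, whose protein p62 sequesters KEAP1 and which is itself an NRF2 target, went from 163 and 162 to 283 and 272 CPM (0.79 ± 0.04, edgeR adjusted p = 6.81e-15). The other 2 were *Mafk*, a small MAF partner of NRF2 (0.50), and *Btrc* (0.28), a ligase adaptor that also acts on NRF2, named because the count is small. In O4AID *Bach1* was at 81.6, 109, 112, 103 and 114 CPM, with 0.41 (0.35 to 0.47) at 1.5 h, when the highest of the 9 genes, *Hmox1*, was at 0.19. *Sqstm1* was at 383, 414, 573, 535 and 505 CPM, with 0.58 (0.55 to 0.61) at 6 h, just under the 1.5-fold limit, which 0 of 10 regulators and 5.30% of all genes passed then. *Rbx1*, the RING subunit of the CUL3 ligase, was the single regulator past it at 24 h, when 22.7% of all genes were, at -0.72 (-0.79 to -0.65).

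Among the further targets, 25 of 27 were measured in each line. At 6 h in O4AID 7 were higher past 1.5-fold and 0 lower (2.51% and 2.79% of all genes), and at 24 h 7 were higher and 2 lower (11.2% and 11.5%). Their median log2 change was 0.10 and 0.15 at these times. In CreER at 36 h 8 were called higher and 3 lower (19.4% and 17.2% of all genes), with a median of 0.0008. *Gss*, which completes glutathione, was at 91.0, 99.5, 195, 217 and 166 CPM in O4AID, 1.09 (1.04 to 1.15) above 0 h at 6 h, and in CreER it rose by 0.84 ± 0.07 at 36 h (edgeR adjusted p = 8.09e-11). *Nqo1*, a quinone reductase, was at 120.8, 124, 200.1, 228 and 327 CPM and so was still climbing at 24 h (1.43, 1.38 to 1.47). In CreER its log2 fold change was 0.67 ± 0.05 at 36 h (edgeR adjusted p = 1.31e-10). *Ggt1*, which degrades extracellular glutathione, reached 1.84 at 24 h in O4AID and was at -0.03 at 36 h in CreER (edgeR adjusted p = 0.878). *Gsta3*, a glutathione S-transferase, fell in CreER at 36 h by 0.72 ± 0.16 (edgeR adjusted p = 0.000537) and stood at -2.11 at 24 h in O4AID. *Gsta4* was at -0.59 there. In CreER *Ephx1* also rose (0.80), and *Cbr3* and *Abcc4* fell (-0.24 and -0.19).

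**Figure D4:**
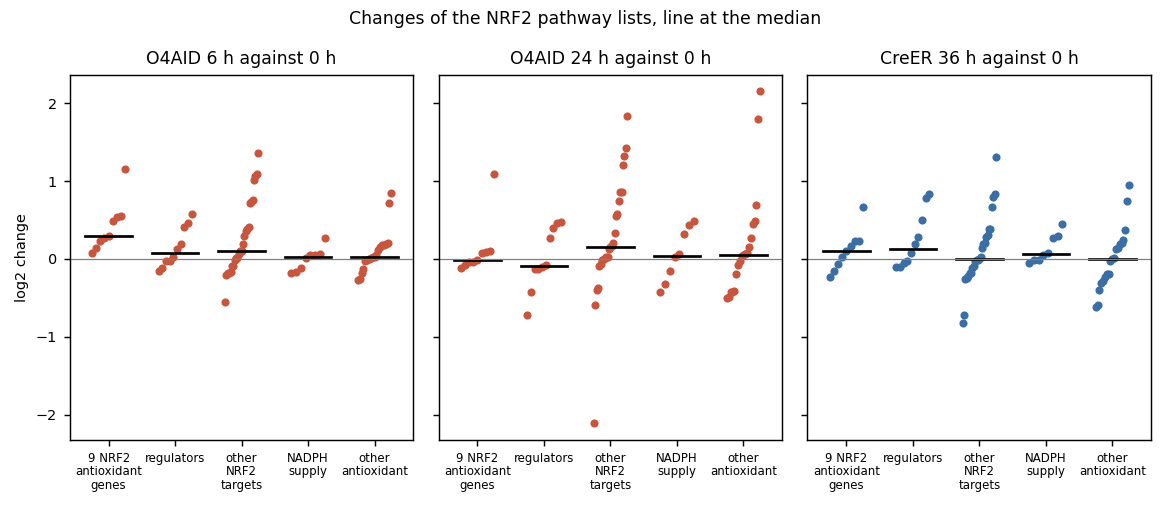
Log2 change against 0 h of each measured gene of 5 lists, with a black line at the list's median, for O4AID at 6 and 24 h (log2 ratio of CPM + 1) and CreER at 36 h (edgeR). At 6 h the 9 antioxidant genes have a median of 0.30, while the other lists have medians of 0.03 to 0.10.

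Of the 8 genes of NADPH supply besides *G6pdx*, 0 were past 1.5-fold in O4AID at any time, where 0.799% to 22.7% of all genes were. In CreER at 36 h 3 of them were called higher and 0 lower, against 19.4% and 17.2% of all genes, *Rpia* (0.45), *Pgls* (0.30) and *Idh1* (0.27). Of the 20 other antioxidant genes, most of which are not classical NRF2 targets, 19 were measured. In O4AID 2 were higher past 1.5-fold at 6 h and 3 at 24 h (2.51% and 11.2% of all genes), led at 24 h by *Txnip*, the inhibitor of thioredoxin (2.15), and *Gpx8*, a peroxidase of the endoplasmic reticulum (1.79). In CreER 4 were called higher and 7 lower at 36 h, against 19.4% and 17.2% of all genes. *Glrx*, a glutaredoxin, rose by 0.95 and *Gpx4*, which reduces lipid peroxides, by 0.74. *Txnip* (-0.58), *Glrx2* (-0.61) and *Sod1* (-0.39) fell. *Txnip* thus stood on opposite sides of its untreated level in the lines, at 843 CPM against 189 in O4AID and at 54.5 and 59.0 CPM against 87.6 and 83.7 in CreER.

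Targets of the aryl hydrocarbon receptor, which senses aromatic compounds and shares *Nqo1* with NRF2, moved in the O4AID course beside the 9 genes. *Cyp1a1* was at 0.752, 11.4, 78.3, 179 and 292 CPM in order of time and *Cyp1b1* at 0.524, 0.974, 10.3, 26.7 and 105 CPM. Of 6 measured targets of that receptor, 5 were higher past 1.5-fold at 6 h (2.51% of all genes), with a median of 1.54. At 24 h 5 were higher and *Aldh3a1* was lower (-1.205), against 11.2% and 11.5% of all genes. *Nqo1* is counted here and among the further NRF2 targets. The 5 that were higher rose further from 6 h to 24 h, while 8 of the 9 antioxidant genes, all but *G6pdx*, were lower at the end of that interval than at its start. In CreER the log2 fold change of *Cyp1a1* and *Cyp1b1* at 36 h was 0.53 and 1.28, and that of *Tiparp* was -0.29, against 1.53 at 24 h in O4AID. The summed level of the 8 ESC markers was 6929 CPM in the untreated O4AID library, 4198 after 6 h and 2206 after 24 h. In CreER it went from 2505 and 2533 to 2288 and 2198 CPM over 36 h. Past 1.5-fold in O4AID at 24 h, 7 of the 8 were lower and 0 higher (11.5% and 11.2% of all genes), with a median of -1.96. In CreER at 36 h 5 were called lower and 2 higher (17.2% and 19.4% of all genes), with a median of -0.16. Trophectoderm markers, genes of the lineage that ESCs take up on losing OCT4, moved as well. The summed level of 8 of them was 104, 109, 137, 134 and 107 CPM in O4AID in order of time. It was highest at 6 h and near its untreated level at 24 h. *Tfap2c* alone held 92.2, 97.3, 121, 116 and 81.4 CPM of it, so the sum largely follows that gene. The median log2 change of the 5 measured markers instead rose at each time, at 0.08, 0.29, 0.53 and 0.87 for 1.5, 6, 10 and 24 h. At 24 h 3 of the 5 measured markers were higher past 1.5-fold, where 11.2% of all genes were. In CreER the sum went from 111 and 103 CPM untreated to 275 and 258 after 36 h. At 36 h 8 of 8 were called higher, where 19.4% of all genes were. No marker was at 0 reads in any library. The part of the receptor's targets and of either marker list in the antioxidant values was not tested.

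The genes closest in pattern to *Srxn1*, *Hmox1* and *Gclm* were looked up by the correlation of log2 CPM + 1 over the 15 libraries, each line centred on its own 0 h level, among 11444 genes. The points share lines, times and scaling, and the correlation is a description only. *Srxn1* was nearest to *Zcchc14* (r = 0.958), *Pfkfb3* (r = 0.944) and *Nudt4* (r = 0.942). For *Hmox1* they were *Zbtb40* (r = 0.883), *Maf1* (r = 0.882) and *Tex19.1* (r = 0.878), and for *Gclm* they were *Ints13* (r = 0.923), *Srsf1* (r = 0.908) and *Eif4g2* (r = 0.906). None of these genes was in the pathway lists.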

How the data were processed

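Ribosomal RNA-depleted, directional paired-end libraries of mouse ESCs were sequenced by the authors, who aligned reads to GRCm38/mm10 with TopHat2 (2.1.0) after Trim Galore (0.1.4) and counted them per gene with featureCounts (1.5.1). Strand and multimapping settings were not given in the sources used here. The deposited counts are whole reads per gene. The deposited normalised table was not used here. Groups came from the sample labels. CreER counts from all 10 libraries were fitted together with edgeR 4.0.16 (R 4.3.3, quasi-likelihood test, TMM factors, filterByExpr), with Benjamini-Hochberg adjustment over 18969 genes and calls at an adjusted p under 0.05. O4AID has 1 library per time, so no p-value was computed: CPM from TMM factors over 15 libraries were compared as log2 ratios of CPM + 1, for genes with a mean of at least 1 CPM, with 95% Wilson counting intervals (SciPy 1.17.1, Python 3.11.15), which cover counting error only. Lengths for CPM per kb were those in the count files. Replicates differed beyond sampling noise (chi-square per degree of freedom 3.27 to 7.76). Scaling, filter, pseudocount, fold limit, DESeq2 1.42.0, the replicate number as a block and leaving out each CreER library were tried as alternatives. Genes outside the 9 were named by rule: the largest called changes of each list at CreER 36 h (up to 3 per direction) and O4AID 24 h (up to 2). The members and lists were chosen with earlier results of these data known. Scripts were tested on simulated data.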

Additional observations from a re-analysis of the deposited data

Results flagged for a closer look

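*Txnrd1* and *G6pdx* stood on opposite sides of their untreated levels in the lines at 24 h, with 1 O4AID library and 2 CreER replicates. Neither was called in CreER then (edgeR adjusted p = 0.0547 and 0.0505). The O4AID value of *G6pdx*, 0.09, was within its largest gap between CreER replicates (0.15). For *Txnrd1* the O4AID change minus the CreER change was -0.17 on the scale of log2 CPM + 1, and for *G6pdx* it was 0.24. Neither difference was tested, and equal hours do not mean equal time without OCT4 in the lines. With scaling by total reads the O4AID value of *Txnrd1* at 24 h was 0.06, on the same side as in CreER.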

How the results depend on the processing

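Calls on the 9 genes moved with scaling. With total-count scaling 0 were called in CreER at 12 h, 1 at 18 h and 3 at 24 h, and 3 passed 1.5-fold in O4AID at 6 h. The median of all genes in O4AID at 24 h then shifted from -0.05 to 0.07. With RLE scaling, with at least 10 counts in every library and without the low-count filter 2 were called at 24 h, and without that filter 2 were called at 12 h too (222 genes in all). With only the 4 libraries compared 4 were called at 36 h. DESeq2 called 956 genes at 18 h and 2523 at 24 h. Replicate numbers did not pair the samples (correlations of -0.02 to 0.05 between 10 pairs of groups, 0 over 0.1), and with the replicate number as a block 2 of the 9 were called at 24 h. Leaving out 1 library gave 0 to 2, 1 to 3, 1 to 3 and 3 to 6 of the 9 called in order of time, and 8 to 218, 582 to 2006 and 2343 to 3703 genes called at the first 3 times, with 8 and 12 at 12 h without the first and the second 12 h replicate, 50 without the second untreated one and 218 without the first; an arm left with 1 library was assumed to vary like the others.

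Of 252 values for single genes in CreER under the alternatives that kept every library, 226 kept direction and side of the threshold, 12 lost a call, 8 gained one and 6 turned direction. Values that turned direction were uncalled in the reported fit. With total-count scaling these were *G6pdx* at 12 h (-0.033), *Hmox1* at 24 h (0.016), *Gsr* at 24 h (0.0032) and *Gclc* at 36 h (-0.057). *Gclc* at 24 h was -0.00036 with RLE scaling and -0.0049 in DESeq2. Leaving out 1 library gave *Gclm* -0.069 to 0.068, *Gclc* -0.074 to 0.029, *Gsr* -0.0063 to 0.18 and *G6pdx* -0.073 to 0.087 at 12 h. It gave *Gclc* -0.016 to 0.087, *Gsr* -0.016 to 0.17 and *G6pdx* -0.081 to 0.078 at 18 h. It gave *Hmox1* -0.035 to 0.018, *Gclc* -0.046 to 0.058 and *Gsr* -0.11 to 0.077 at 24 h, and *Gclc* -0.024 to 0.080 and *Gsr* -0.16 to 0.031 at 36 h.

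In O4AID the counts of all genes past 1.5-fold, in order of time, were 29, 341, 660 and 1826 with a pseudocount of 5 and 34, 382, 693 and 1651 with a mean of at least 10 CPM. A pseudocount of 0.1 gave 349 at 1.5 h and 1131 at 6 h. A 2-fold limit gave 15, 165, 360 and 1124 genes, and 0 of the 9 at 10 h. The 1.2-fold limit, chosen after seeing the data, gave 1470, 3489, 4780 and 7811 genes, with 6 of the 9 at 6 h and 2 at 10 h. The median 24 h difference between the lines over the 9 genes, -5e-05, was 0.024 with RLE scaling, 0.10 with total-count scaling and -0.053 against CreER at 36 h, and -0.026 to 0.012 when 1 library was left out. The cause of these shifts was not tested. O4AID had 1 library per time.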
